A study of Arabidopsis thaliana with 12 samples.

Results

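The cysteine-rich receptor-like kinases (CRKs) of Arabidopsis thaliana were followed in rosettes that lacked KLU or carried it in excess. Members were taken by their annotation in the deposited table, as genes described as a cysteine-rich receptor-like kinase (RLK) or named CRK with a number and described as an RLK, which gave 39 of 33323 genes. Of these, 38 carry a CRK name, and AT4G23215 is annotated as a transcribed pseudogene of the family. A total of 31 members reached 0.5 FPKM (fragments per kilobase of transcript, scaled to a common library size) in at least 3 libraries and were tested. The other 8 (CRK20, CRK25, CRK26, CRK27, CRK30, CRK31, CRK32 and CRK33) did not.

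RNA was sequenced from 3 individual plants of each of 4 genotypes at 35 days after germination, from short days of 8 h light and 16 h dark, which gave 12 libraries. According to the methods of the study whole rosettes were taken, and the labels name the tissue as leaf. Col-0 is the wild type, and klu carries a T-DNA insertion in the cytochrome P450 gene KLU (AT1G13710, CYP78A5) in the Col-0 background. 35S:KLU1 and 35S:KLU2 are separate transgenic lines, each a single line, in which the viral 35S promoter drives the KLU coding sequence, fused to GFP, in almost all cells rather than where KLU is normally active. KLU transcript (FPKM) lay between 5.42 and 6.26 in the Col-0 plants, between 0.13 and 0.22 in the klu plants and between 1728.75 and 2890.32 in the transgenic plants, so each library matched its label as Col-0, klu or 35S:KLU.

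CRKs are kinases of the plasma membrane. Outside the cell they carry repeats of the DUF26 domain, which holds conserved cysteines, and inside the cell a serine/threonine kinase. In leaves the family is known for transcripts that rise with pathogens, salicylic acid and ozone, and for roles in the burst of reactive oxygen species, in pathogen defence, in cell death and in stomatal responses. Many members lie as tandem copies on chromosome 4.

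Klu replicate 1 stood apart from the other libraries. Its mean distance to its own genotype (root mean square difference of log2(FPKM + 1) over the tested genes) was 0.459, against 0.258 to 0.393 for the other 11 libraries. In that library the meristem genes STM and KNAT1 were at 0 and 0.06 FPKM, against 8.21 to 9.28 FPKM and 4.74 to 5.11 FPKM in the other klu plants. It also held the lowest value of all 12 libraries for 16 of the 31 tested members, and it lay below both other klu libraries for 20. The main counts and medians of the members against klu are therefore given with and without it. For many members with individual values below, the change or the adjusted p without it is given as well. Sequencing depth could be read only as a relative value: 1 fragment was worth 0.887 to 1.46 times as much FPKM as in Col-0 replicate 1, with 35S:KLU2 replicate 2 the shallowest library.

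FPKM are scaled by transcript length, so levels can be set beside each other across genes. CRK6 had the highest mean over the 12 libraries, at 71.2 FPKM, followed by CRK4 at 63.6, CRK40 at 51.3, CRK10 at 49.0 and CRK19 at 30.8 FPKM. These 5 genes held 49.8% of the FPKM summed over the family. A mean of at least 10 FPKM was reached by 14 tested members, and the lowest tested means were those of CRK39 at 1.23 FPKM, CRK8 at 1.77 FPKM and CRK38 at 2.20 FPKM. Variation across libraries differed between members, from a highest value 1.33 times the lowest in CRK22 to 11.2 times in CRK38, and it was at least 2-fold in 19 members. The summed FPKM of the family was 452.5 ± 26.7 in Col-0, 415.6 ± 42.8 in klu, 638.1 ± 50.0 in 35S:KLU1 and 630.1 ± 92.0 in 35S:KLU2 (mean ± SD, n = 3 plants each). The 6 35S:KLU plants lay between 534.4 and 717.9 FPKM, above the 370.1 to 477.3 FPKM of the 6 plants of Col-0 and klu.

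**Figure D1:**
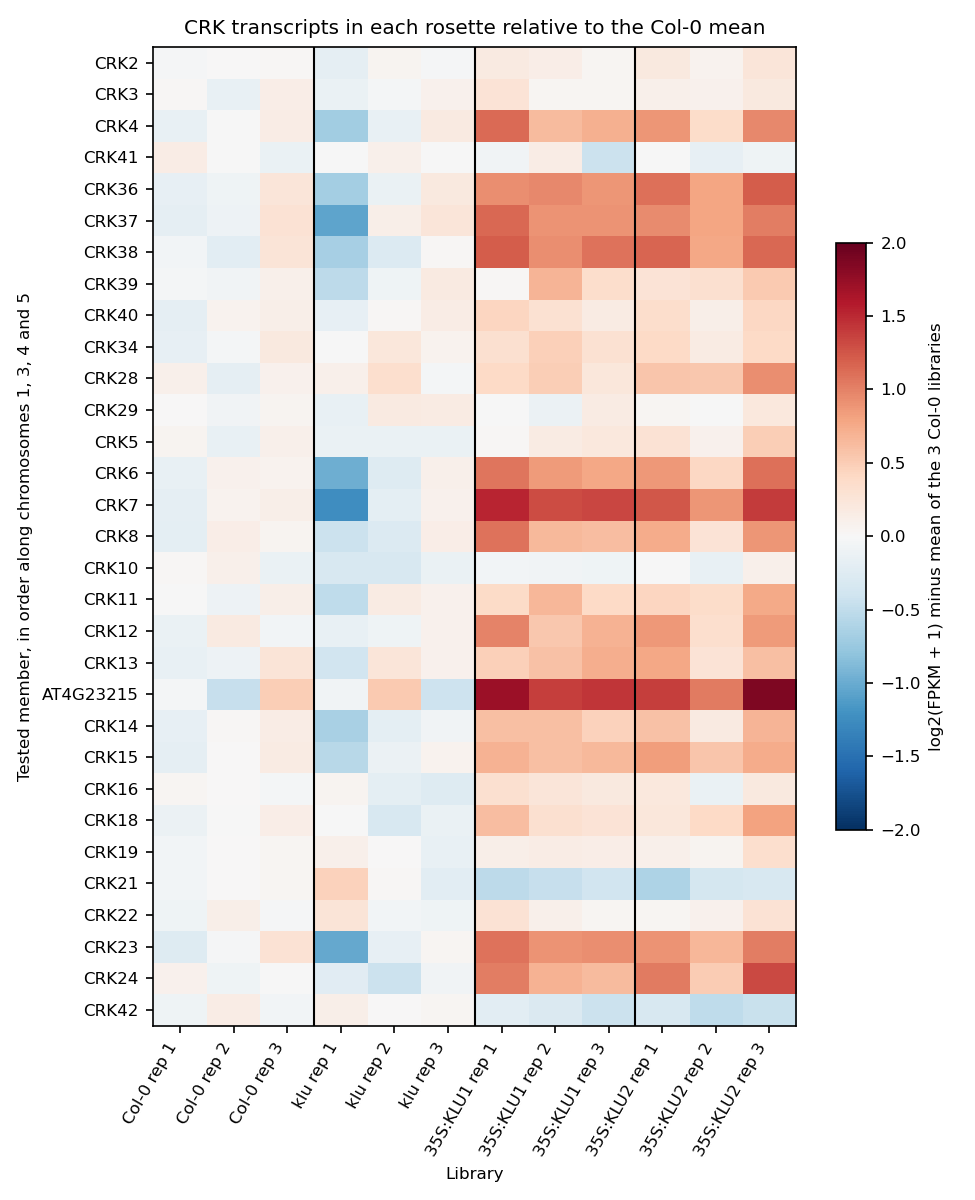
Log2(FPKM + 1) of each tested CRK (rows, in order along the chromosomes) in each library (columns, grouped by genotype), as the difference from the mean of the 3 Col-0 libraries, with red for higher and blue for lower. CRK7, AT4G23215 and the neighbours CRK36, CRK37 and CRK38 are red in all 6 35S:KLU libraries, CRK21 and CRK42 are blue there, and klu replicate 1 holds the lowest value for 16 of the 31 rows.

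Most expressed CRKs had more transcript in the 35S:KLU rosettes. Against Col-0, 19 of 31 tested members were called higher and 2 lower in the mean of both lines, where 11.4% of all tested genes were called higher and 8.18% lower. Against klu, 22 were called higher and 2 lower, beside 15.9% and 10.7% of all tested genes. A call is an adjusted p under 0.05 from limma on log2(FPKM + 1), adjusted over 19660 tested genes, and fold changes are on that scale, where a weakly expressed gene shows less than its true fold. The median log2 fold change of the members was 0.50 against Col-0 and 0.59 against klu, where the medians of all tested genes were 0.03 and 0.04. Both references share the 35S:KLU libraries, so their results are not independent. In all, 18 members were called higher against both references, CRK34 only against Col-0, and CRK5, CRK10, CRK16 and CRK39 only against klu. CRK2, CRK3, CRK19, CRK22, CRK29 and CRK41 were called in neither, and whether these members differ from the called ones was not tested.

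Leaving out 1 Col-0 plant changed the count against Col-0. Without Col-0 replicate 1, 8 members were called higher and 1 lower, where 5.63% and 5.6% of all tested genes were called. Without Col-0 replicate 2, 11 were called higher and 0 lower, beside 6.45% and 4.75% of all tested genes. The model takes its spread from all 12 libraries, so klu replicate 1 bears on the comparisons with Col-0 too. Without it, 19 members were called higher and 2 lower against Col-0, beside 16.5% and 12.1% of all tested genes. AT4G23215, CRK7, CRK12, CRK15, CRK24, CRK36 and CRK38 were called higher without each of the 12 libraries in turn. Against klu, 17 were called higher and 2 lower without klu replicate 1, beside 10.9% and 13.3% of all tested genes, with a median of 0.40 for the members and -0.03 for all tested genes. In that comparison 16 members were called higher without each library in turn, and CRK21 and CRK42 were called lower in each.

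**Figure D2:**
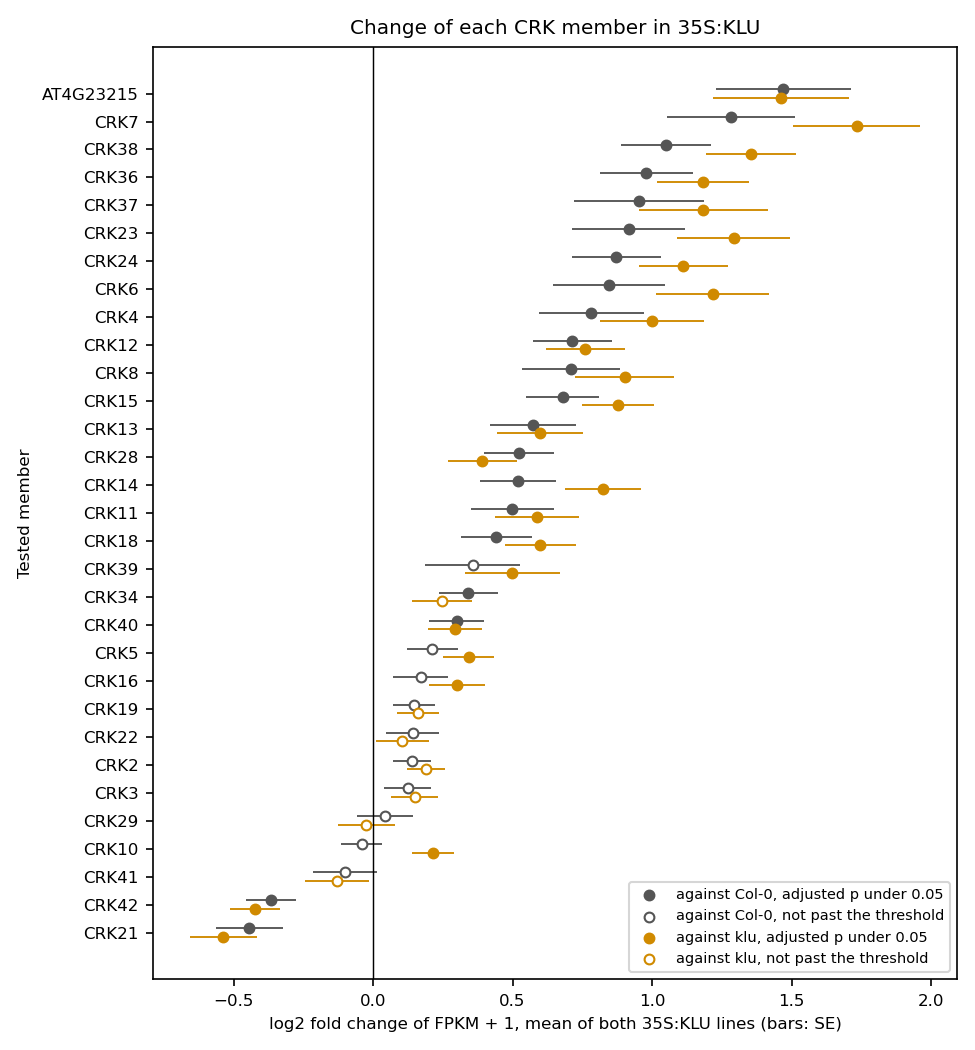
Log2 fold change of FPKM + 1 (horizontal axis, bars are SE) of each tested member in the mean of both 35S:KLU lines, against Col-0 in grey and against klu in orange, with filled points for an adjusted p under 0.05. The changes run from -0.44 for CRK21 to 1.47 for AT4G23215 against Col-0, and 27 of the 31 members lie right of 0 in each comparison.

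Groups without overlap were counted too. In 20 members every 35S:KLU plant lay above every Col-0 plant, against 15.6% of all tested genes, and in 2 every 35S:KLU plant lay below. Against klu this held for 17 members upward, beside 14.5% of all tested genes, and for 2 downward. The shares of all tested genes that lay below were 11.8% and 9.79%. Without klu replicate 1, 20 members lay above klu and 2 below, beside 15.5% and 18.9% of all tested genes.

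CRK6 and CRK7, which have been tied to protection from reactive oxygen species outside the cell, lie next to each other and were both higher in 35S:KLU. CRK7 measured 13.92, 16.79 and 17.31 FPKM in Col-0, at 6.15, 13.83 and 17.00 in klu, at 47.55, 41.07 and 41.70 in 35S:KLU1 and at 39.12, 30.36 and 43.74 in 35S:KLU2. Every 35S:KLU plant lay above every plant of Col-0 and klu. CRK7 was 2.43-fold higher than in Col-0 (log2 1.28 ± 0.23 SE, limma adjusted p = 0.00276) and 3.32-fold higher than in klu (log2 1.73 ± 0.23 SE, adjusted p = 0.000306; log2 1.34 without klu replicate 1). CRK6 measured 46.61, 55.14 and 54.87 FPKM in Col-0, at 26.07, 43.59 and 56.05 in klu, at 110.91, 94.23 and 89.33 in 35S:KLU1 and at 95.33, 69.97 and 112.89 in 35S:KLU2. The groups did not overlap here either, and the difference from Col-0 was a log2 change of 0.85 ± 0.20 SE (limma adjusted p = 0.0127), a call lost without Col-0 replicate 1 (adjusted p = 0.0627). Against klu CRK6 rose by 1.22 ± 0.20 SE on the log2 scale (limma adjusted p = 0.00118), and by 0.92 without klu replicate 1. The next gene, CRK8, had a low mean of 1.13 FPKM in Col-0 and 2.52 FPKM in 35S:KLU and was called higher against both references, against Col-0 not without Col-0 replicate 1 (adjusted p = 0.0816). Without klu replicate 1 its log2 change against klu was 0.78 (adjusted p = 0.0144). RefSeq transcripts of CRK6 and CRK8 share an identical stretch of 368 bases and are 90.2% identical where aligned, so reads may have been divided between them and the low value of CRK8 is uncertain.

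**Figure D3:**
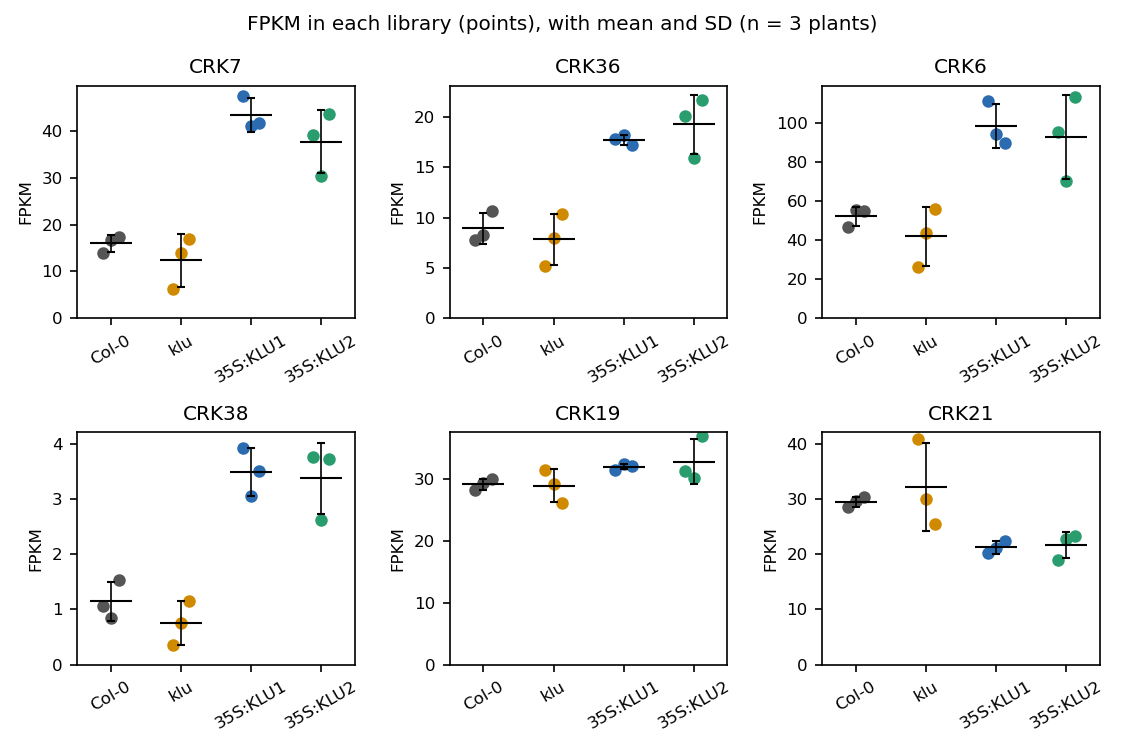
FPKM of 6 CRKs in each plant (points), by genotype, with the mean (long line) and SD (bars, n = 3 plants per genotype). The 35S:KLU plants lie above all Col-0 and klu plants for CRK7, CRK36, CRK6 and CRK38, near them for CRK19 (26.17 to 37.05 FPKM over all plants) and below them for CRK21.

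CRK4, CRK5, CRK19 and CRK20 are known for the cell death that follows when they are overexpressed from an inducible promoter. Of these 4 genes, CRK4 alone was called higher against both references, and CRK20 was not tested. CRK4 measured 42.53, 46.80 and 52.21 FPKM in Col-0, at 28.74, 42.46 and 53.61 in klu, at 104.82, 73.70 and 77.27 in 35S:KLU1 and at 87.51, 60.89 and 92.75 in 35S:KLU2. It was 1.72-fold higher than in Col-0 (log2 0.78 ± 0.19 SE, limma adjusted p = 0.0129) and 2.0-fold higher than in klu (log2 1.0 ± 0.19 SE, adjusted p = 0.00244; log2 0.76 without klu replicate 1), and the first call was lost without Col-0 replicate 1 (adjusted p = 0.0629). CRK5, a gene inducible by salicylic acid that also acts in abscisic acid responses, was at 13.5 ± 1.31 FPKM in Col-0, 12.2 ± 0.07 in klu and 15.9 ± 1.97 in 35S:KLU (SD, n = 3, 3 and 6). Its change did not pass against Col-0 (log2 0.21 ± 0.09 SE, adjusted p = 0.127) and passed against klu (log2 0.34 ± 0.09 SE, adjusted p = 0.0161; 0.0372 without klu replicate 1). CRK19 was at 28.20 to 30.06 FPKM in Col-0 and 30.23 to 37.05 FPKM in 35S:KLU, a difference that did not pass (log2 0.15 ± 0.08 SE, limma adjusted p = 0.198). CRK20 was near the limit of detection, with 0.13 to 0.18 FPKM in Col-0, 0.15 to 0.27 in klu and 0.26 to 0.61 in 35S:KLU. Its transcript shares identical stretches of 86 bases with CRK23 and 74 bases with CRK19, so its low values are uncertain.

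CRK20 and CRK27 stood just outside the limit for testing. CRK20 reached 0.5 FPKM only in 35S:KLU2 replicates 1 and 3, at 0.61 and 0.56 FPKM, and CRK27 only in klu replicate 2, at 0.52 FPKM. Among the tested members CRK39 and CRK38 were nearest to it, with lowest values of 0.38 and 0.35 FPKM, both in klu replicate 1. CRK33 was listed at 0 in all 12 libraries.

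CRK36 to CRK39 form a tandem group of 4 genes over 30.6 kb of chromosome 4. CRK36, which interacts with the immune kinase BIK1 and is a negative regulator of abscisic acid responses, measured 7.81, 8.24 and 10.69 FPKM in Col-0, at 5.17, 7.96 and 10.31 in klu, at 17.76, 18.22 and 17.21 in 35S:KLU1 and at 20.12, 15.94 and 21.69 in 35S:KLU2. No 35S:KLU plant overlapped a plant of Col-0 or klu. The log2 change was 0.98 ± 0.17 SE against Col-0 (limma adjusted p = 0.00209) and 1.18 ± 0.17 SE against klu (adjusted p = 0.000427; log2 0.95 without klu replicate 1). CRK38, at 0.85 to 1.54 FPKM in Col-0, 0.35 to 1.16 in klu and 2.63 to 3.93 in 35S:KLU, changed by 1.05 ± 0.16 SE against Col-0 (limma adjusted p = 0.00136) and by 1.36 ± 0.16 SE against klu (adjusted p = 0.000174; log2 1.18 without klu replicate 1). CRK37 was at 5.05 to 7.34 FPKM in Col-0, 2.30 to 7.08 in klu and 10.85 to 14.14 in 35S:KLU. Its log2 change of 0.95 ± 0.23 SE against Col-0 (limma adjusted p = 0.0144) was lost when Col-0 replicate 1 was left out (adjusted p = 0.0686), and also for Col-0 replicate 2 (adjusted p = 0.0611). Against klu without klu replicate 1 its log2 change was 0.77 (adjusted p = 0.00146). CRK39, the last of the group, was called only against klu (log2 0.50 ± 0.17 SE, adjusted p = 0.0474), and that call ended without klu replicate 1 (adjusted p = 0.200) and in 9 other leave-one-out fits. CRK40, a little further along, was much higher in level, with 45.9 ± 4.98 FPKM in Col-0 and 56.6 ± 4.99 in 35S:KLU. It passed narrowly against Col-0 (log2 0.30 ± 0.10 SE, adjusted p = 0.0495; 0.227 without Col-0 replicate 1), and several other leave-one-out fits ended this call too. Against klu it also passed narrowly (log2 0.29 ± 0.10 SE, limma adjusted p = 0.0421). That call ended without klu replicate 1 (adjusted p = 0.160) and in several other leave-one-out fits. Transcripts of CRK39 and CRK40 share an identical stretch of 135 bases, which leaves CRK39, the weaker of them, uncertain.

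CRK28 and CRK29 lie side by side and are induced in immune responses, and CRK28 is known to associate with the co-receptor BAK1. CRK28 was at 2.40 to 3.13 FPKM in Col-0, 2.74 to 3.89 in klu and 3.51 to 6.33 in 35S:KLU, and was called higher against Col-0 (log2 0.52 ± 0.12 SE, limma adjusted p = 0.0129; 0.0730 without Col-0 replicate 2) and klu (log2 0.39 ± 0.12 SE, adjusted p = 0.0362; 0.0829 without klu replicate 1 and 0.131 without klu replicate 3). CRK29, at 4.53 to 6.06 FPKM over all plants, was not called against either (log2 0.04 ± 0.10 SE and -0.02 ± 0.10 SE, adjusted p = 0.799 and 0.890; log2 -0.13 against klu without klu replicate 1). Their annotated transcripts overlap on the same strand and share 470 bases, so the division of reads between CRK28 and CRK29 is uncertain.

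CRK2 phosphorylates the NADPH oxidase RBOHD, the main source of the immune oxidative burst. It varied little, with 22.5 ± 0.30 FPKM in Col-0, 21.7 ± 1.87 in klu and 24.9 ± 1.38 in 35S:KLU, and was not called (log2 0.14 ± 0.07 SE against Col-0, limma adjusted p = 0.173; log2 0.19 ± 0.07 SE against klu, adjusted p = 0.0556, and log2 0.13 without klu replicate 1). CRK10, whose gain-of-function allele alters xylem vessels and growth, was at 47.34 to 55.68 FPKM in Col-0, 41.18 to 47.35 in klu and 46.58 to 55.91 in 35S:KLU. It did not pass against Col-0 (log2 -0.04 ± 0.07 SE, adjusted p = 0.740) and passed narrowly against klu (log2 0.21 ± 0.07 SE, adjusted p = 0.0497; 0.130 without klu replicate 1 and 0.15 without klu replicate 2). The ends of CRK10 and CRK11 overlap on opposite strands, and whether counting used the strand is not given in the sources used here. CRK11 rose from 3.46 to 4.21 FPKM in Col-0 to 5.17 to 7.15 FPKM in 35S:KLU (log2 0.50 ± 0.15 SE, limma adjusted p = 0.0357), a call that 8 of the 12 leave-one-out fits ended, with adjusted p up to 0.132. Against klu without klu replicate 1 its log2 change was 0.38 (adjusted p = 0.0454). CRK13, whose overexpression raises salicylic acid and resistance to bacteria, was at 4.62 to 6.49 FPKM in Col-0, 3.79 to 6.37 in klu and 6.53 to 9.75 in 35S:KLU. Its log2 change was 0.57 ± 0.15 SE against Col-0 (limma adjusted p = 0.0224; 0.103 without Col-0 replicate 1) and 0.60 ± 0.15 SE against klu (adjusted p = 0.0139; 0.0586 without klu replicate 1), and it shares a stretch of 309 identical bases with CRK22, which leaves both values uncertain.

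The other members with higher values have no role given here. AT4G23215, the pseudogene between CRK13 and CRK14, had the largest change of all tested members against Col-0. Its values were 4.09, 2.81 and 6.39 FPKM in Col-0, at 3.96, 6.53 and 2.91 in klu, at 16.05, 12.70 and 13.11 in 35S:KLU1 and at 12.66, 9.81 and 18.18 in 35S:KLU2, with no overlap between 35S:KLU and the rest. The log2 change was 1.47 ± 0.24 SE against Col-0 (limma adjusted p = 0.00183) and 1.46 ± 0.24 SE against klu (adjusted p = 0.00120; log2 1.42 without klu replicate 1), from a transcript of only 495 bases. CRK23 (log2 0.92 against Col-0 and 1.29 against klu), CRK24 (0.87 and 1.11), CRK12 (0.71 and 0.76) and CRK15 (0.68 and 0.88) were called against both references and in each line. Without klu replicate 1 these 4 changed against klu by log2 0.97, 1.12, 0.71 and 0.70 in the same order. CRK23 lost its call against Col-0 without Col-0 replicate 1 (adjusted p = 0.0514), and CRK12, CRK15 and CRK24 kept theirs without each library. CRK14 (log2 0.52 against Col-0), CRK18 (0.44) and CRK34 (0.34) were also called, and each call ended without Col-0 replicate 1 (adjusted p = 0.102, 0.128 and 0.188).

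CRK21 and CRK42 were lower in 35S:KLU. CRK21 measured 28.53, 29.71 and 30.33 FPKM in Col-0, at 41.01, 29.96 and 25.48 in klu, at 20.16, 21.15 and 22.47 in 35S:KLU1 and at 18.96, 22.80 and 23.36 in 35S:KLU2. Its highest value was in klu replicate 1, and no 35S:KLU plant reached the lowest plant of Col-0 or klu. The log2 change was -0.44 ± 0.12 SE against Col-0 (limma adjusted p = 0.0231) and -0.54 ± 0.12 SE against klu (adjusted p = 0.00674; log2 -0.35 without klu replicate 1). CRK42, on chromosome 5, was at 4.64, 5.63 and 4.74 FPKM in Col-0, at 5.52, 5.05 and 5.14 in klu, at 4.20, 3.91 and 3.43 in 35S:KLU1 and at 3.79, 3.23 and 3.39 in 35S:KLU2. Its log2 change was -0.37 ± 0.09 SE against Col-0 (limma adjusted p = 0.0146) and -0.42 ± 0.09 SE against klu (adjusted p = 0.00485; log2 -0.39 without klu replicate 1). The calls against Col-0 did not hold in every leave-one-out fit. That of CRK21 was lost without any 1 of the 3 Col-0 plants (limma adjusted p = 0.0617 to 0.0782). Its log2 change stayed between -0.47 and -0.40 over all leave-one-out fits. The call of CRK42 was lost without Col-0 replicate 2 (limma adjusted p = 0.0862).

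The lines showed similar values. In 35S:KLU1 against Col-0, 14 members were called higher and 0 lower (5.6% and 6.07% of all tested genes), and in 35S:KLU2 against Col-0, 13 were called higher and 1 lower (10.8% and 5.27%). With klu replicate 1 left out of the model, these counts against Col-0 were 16 and 2 in 35S:KLU1 (9.4% and 10.5%). In 35S:KLU2 they were 17 and 2 (17.0% and 8.31%). Called higher in both lines against Col-0 were 11 members: AT4G23215, CRK4, CRK6, CRK7, CRK12, CRK15, CRK23, CRK24, CRK36, CRK37 and CRK38, beside 5.01% of all tested genes. Against klu, 17 were called higher and 2 lower in 35S:KLU1 (9.52% and 9.2%) and 18 and 2 in 35S:KLU2 (15.0% and 7.11%). Without klu replicate 1 the counts were 15 and 1 in 35S:KLU1 (7.28% and 12.5%) and 16 and 2 in 35S:KLU2 (10.6% and 9.27%). CRK8, CRK11, CRK13, CRK14 and CRK18 joined the same 11 in both lines against klu, where 8.73% of all tested genes were called higher in each line, and CRK21 and CRK42 were lower in both (5.97%). Called lower in both lines against Col-0 were 0 members (4.13%). Compared directly, 35S:KLU2 and 35S:KLU1 differed in 0 members by limma (0.0102% of all tested genes were called), and 0 members had an unadjusted p under 0.05, as 5.66% of all tested genes did. The log2 differences ranged from -0.21 to 0.30, the latter in CRK28. CRK28 was called in 35S:KLU2 (log2 0.68 ± 0.14 SE, adjusted p = 0.00955) and not in 35S:KLU1 (log2 0.37 ± 0.14 SE, adjusted p = 0.119).

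Loss of KLU gave no called change in these genes. In klu against Col-0, limma called 0 members, beside 0.061% of all tested genes, with adjusted p from 0.682 to 0.999, and only CRK10 had an unadjusted p under 0.05, as 6.01% of all tested genes did. CRK10 was lower in klu by a log2 difference of -0.26 ± 0.09 SE (limma adjusted p = 0.682). The means of 22 members were lower in klu and the median was -0.13, where that of all tested genes was -0.01. Without klu replicate 1, 15 were lower and the median was 0.00, with 0.05 for all tested genes.

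Most members lie in tandem. By the RefSeq annotation of assembly TAIR10.1, 35 of 39 members lie on chromosome 4. The largest array, with no gap over 25 kb between members, holds 19 of them from CRK5 to CRK24 in 74.2 kb (positions 12117491 to 12191704), and 18 were tested. In it, 12 were called higher and 1 lower against Col-0, and 15 and 1 against klu, where 11.4% and 8.18% of all tested genes were called against Col-0 and 15.9% and 10.7% against klu. Neighbours did not all move the same way: going along the array, CRK18 was called higher against both references, CRK19 was not called, CRK20 was not tested, CRK21 was called lower, CRK22 was not called, and CRK23 and CRK24 were called higher. In the group CRK36 to CRK39, 3 of 4 members were called higher against Col-0 and 4 against klu. In the array CRK30 to CRK34, over 26.3 kb, CRK34 alone was expressed enough to be tested.

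**Figure D4:**
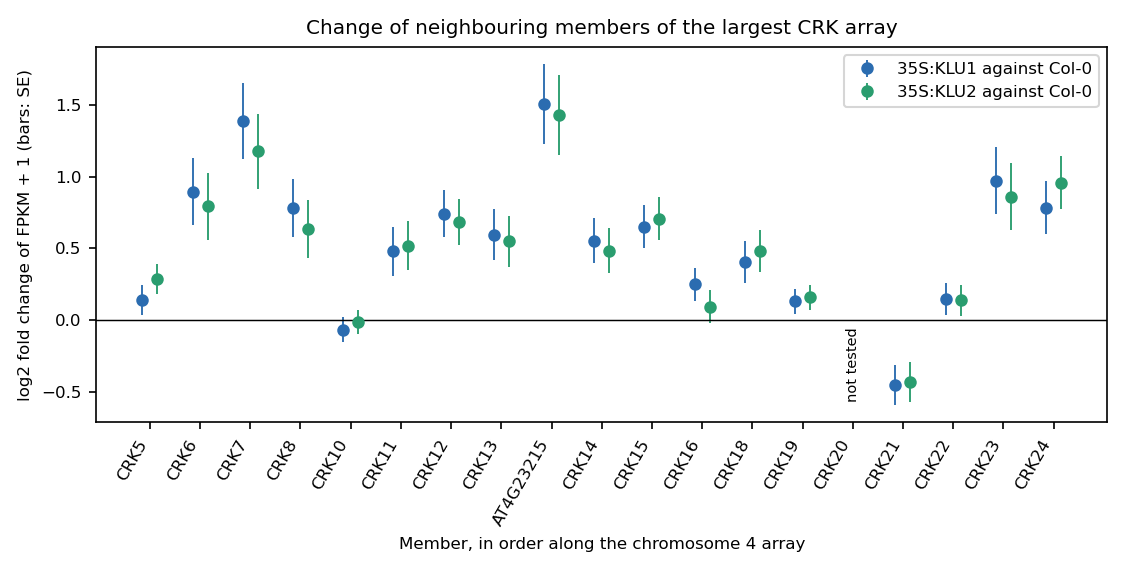
Log2 fold change of FPKM + 1 against Col-0 (vertical axis, bars are SE) for the members of the largest array in chromosome order (horizontal axis), with 35S:KLU1 in blue and 35S:KLU2 in green. Both lines lie close together at each gene, from 1.51 and 1.43 at AT4G23215 to -0.46 and -0.43 at CRK21, and CRK20 was not tested.

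Promoters were read as the 250 bases before the annotated start of each gene in RefSeq TAIR10.1. For some members, such as CRK14 and CRK15, no untranslated leader is annotated, so the window ends at the start codon. Some windows also reach into another gene, as that of CRK28 does into CRK29. The W box, with the core TTGAC, which was searched on both strands, is the element that WRKY transcription factors bind, and several CRK genes have been described as candidate targets of salicylic acid-induced WRKY factors. At least 1 core on either strand was found in 29 of 39 members, beside 44.9% of the 27443 protein-coding genes searched, and at least 2 cores in 16 of 39, beside 14.1%. Of the 23 members called higher against either reference, 19 had a core, as did 3 of the 8 tested members that were not called higher and 7 of the 8 that were not tested. TGACG, the core bound by TGA factors, which can overlap with that of the W box, was found in 12 members, beside 18.6% of the genes searched. A match is a run of letters and not a shown binding site, and tandem copies share sequence, so these counts are a description. Below are the strongly changed CRK7, CRK6 and CRK36, then CRK11, which had the most cores (6), and the lower CRK21, which had 0. Each is written from 5′ to 3′ on the strand of its gene, with the W-box core, or its reverse complement, in capitals.
CRK7 (chr4:12125414-12125663, plus strand): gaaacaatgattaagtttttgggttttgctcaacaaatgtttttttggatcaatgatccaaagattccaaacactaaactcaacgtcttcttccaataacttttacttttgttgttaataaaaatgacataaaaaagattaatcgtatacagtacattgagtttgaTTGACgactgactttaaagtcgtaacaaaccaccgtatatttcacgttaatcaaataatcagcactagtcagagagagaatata
CRK6 (chr4:12121119-12121368, plus strand): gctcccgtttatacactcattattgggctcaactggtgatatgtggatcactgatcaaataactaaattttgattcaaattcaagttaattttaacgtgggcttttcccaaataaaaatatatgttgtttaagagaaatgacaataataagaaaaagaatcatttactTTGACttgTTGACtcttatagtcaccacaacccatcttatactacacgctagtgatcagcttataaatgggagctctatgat
CRK36 (chr4:2234690-2234939, minus strand): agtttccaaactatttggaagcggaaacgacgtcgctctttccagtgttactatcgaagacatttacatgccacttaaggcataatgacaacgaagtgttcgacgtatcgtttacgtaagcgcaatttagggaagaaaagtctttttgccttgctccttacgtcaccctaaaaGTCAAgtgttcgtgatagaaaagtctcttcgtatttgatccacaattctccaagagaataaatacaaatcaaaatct
CRK11 (chr4:12143859-12144108, minus strand): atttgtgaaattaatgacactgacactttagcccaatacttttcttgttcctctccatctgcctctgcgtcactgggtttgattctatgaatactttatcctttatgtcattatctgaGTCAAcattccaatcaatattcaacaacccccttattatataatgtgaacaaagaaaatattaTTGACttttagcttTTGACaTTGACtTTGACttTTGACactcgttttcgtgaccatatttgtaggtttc
CRK21 (chr4:12180937-12181186, minus strand): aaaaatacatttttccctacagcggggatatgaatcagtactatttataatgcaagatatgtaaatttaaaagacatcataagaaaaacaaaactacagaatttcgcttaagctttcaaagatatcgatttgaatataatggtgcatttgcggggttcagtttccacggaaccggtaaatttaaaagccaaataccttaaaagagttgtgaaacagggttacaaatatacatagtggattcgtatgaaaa

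CRK6 has 2 cores close together, CRK7 and CRK36 have 1 each, and the 6 of CRK11 lie mostly in a short stretch near the start of the gene.

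A further 3 genes named CRK were tested but fall outside the annotation rule, since their descriptions do not call them cysteine-rich. CRK45 (ARCK1), which acts with CRK36 in abscisic acid responses, was at 50.94 to 67.23 FPKM in Col-0, 33.33 to 77.48 in klu and 122.97 to 163.03 in 35S:KLU. Its log2 change was 1.28 ± 0.21 SE against Col-0 (limma adjusted p = 0.00163) and 1.34 ± 0.21 SE against klu (adjusted p = 0.000753; log2 0.98 without klu replicate 1). CRK9 (log2 0.48 and 0.62) and CRK17 (0.34 and 0.47) were also called higher against both references, and against klu without klu replicate 1 (log2 0.64 and 0.41). By their locus numbers, AT4G23170 and AT4G23250, both fall within the largest array, whose counts above leave them out. CRK1 was listed at 0 in all libraries.

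The family was set beside lists of related genes. Beside each list stand the shares of all tested genes, 11.4% higher and 8.18% lower against Col-0 and 15.9% and 10.7% against klu. Of 131 tested leucine-rich repeat kinases, 18 (13.7%) were called higher and 25 (19.1%) lower against Col-0 and 24 (18.3%) and 29 (22.1%) against klu, with a median log2 change of -0.12 and -0.11. The share called higher was near that of all tested genes. Without klu replicate 1, 17 were called higher and 44 lower against klu. With the libraries scaled by median of ratios, 40 and 39 were called lower. Of 55 tested lectin kinases, 14 (25.5%) were called higher and 1 (1.82%) lower against Col-0 and 23 (41.8%) and 1 (1.82%) against klu, with a median of 0.17 in both, and 18 and 1 were called against klu without klu replicate 1. Of 7 tested genes described as receptor-like protein kinase-related, 4 (57.1%) were called higher and 0 lower against Col-0, with a median of 0.48. Against klu, with all libraries, 4 (57.1%) were called higher and 0 lower, with a median of 0.62. The plasmodesmata-located proteins (PDLPs) carry the same DUF26 domains as CRKs without a kinase. Of 7 tested, PDLP5 was higher (log2 0.50 against Col-0 and 0.78 against klu, or 0.61 without klu replicate 1), and PDLP2, PDLP3, PDLP6 and PDLP7 were lower (log2 -0.42 to -0.51 against Col-0). Without Col-0 replicate 1 or 2, PDLP5 was not called against Col-0 and 2 PDLPs were called lower. The lists were set apart from the members and not from each other, so a gene can count in more than 1. The receptor-like protein kinase-related list has as medians the changes of CRK9 (log2 0.48 and 0.62). Its lowest change in klu against Col-0 is also that of the PDLPs (log2 -0.28). The leucine-rich repeat list has the same lowest change against klu as the pattern receptors below (log2 -0.68). These differences between lists were not tested.

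Among receptors and kinases of immunity, more genes were called higher than lower in 35S:KLU. Of 17 pattern receptors and co-receptors, 8 (47.1%) were called higher and 1 (5.88%) lower against Col-0, and 11 (64.7%) and 1 against klu, or 9 and 1 without klu replicate 1. RLP23, the receptor of nlp20 peptides, and its partner SOBIR1 were higher (log2 0.79 and 0.49 against Col-0), and so was BAK1 (log2 0.22, limma adjusted p = 0.0305). Against klu without klu replicate 1, RLP23 and SOBIR1 were called higher and BAK1 was not called (log2 0.16, limma adjusted p = 0.0732). FLS2, the flagellin receptor, was lower, at 11.29 to 11.93 FPKM in Col-0, 9.02 to 14.64 in klu and 6.20 to 7.71 in 35S:KLU (log2 -0.68 ± 0.12 SE against klu, adjusted p = 0.00149; log2 -0.85 without klu replicate 1). Without Col-0 replicate 1, and likewise without Col-0 replicate 2, 2 of these receptors were called higher against Col-0 (all tested genes 5.63% and 6.45%). Of 18 cytoplasmic kinases, mitogen-activated protein kinases and NADPH oxidases, 4 (22.2%) were called higher and 0 lower against Col-0, and 8 (44.4%) and 1 against klu, or 4 and 1 without klu replicate 1. BIK1, the partner of CRK36, passed narrowly against Col-0 (log2 0.33, limma adjusted p = 0.0444). Against klu without klu replicate 1, BIK1 was not called (log2 0.25, limma adjusted p = 0.121). RBOHD, the substrate of CRK2, was not called against Col-0 (log2 -0.10, adjusted p = 0.568) and was higher against klu (log2 0.35, adjusted p = 0.0402; 0.15 without klu replicate 1).

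Genes of the salicylic acid pathway, an inducer of many CRKs, were higher in 35S:KLU as well. Of 18 genes for its synthesis, sensing and response, 15 (83.3%) were called higher against Col-0 and 16 (88.9%) against klu, with 0 lower in each, and the median log2 change was 0.66 and 0.73. Without Col-0 replicate 2, 9 were called higher against Col-0, and without klu replicate 1, 14 against klu. PR1, a marker of the salicylic acid response, was at 327.66 to 549.53 FPKM in Col-0, 106.82 to 549.64 in klu and 2048.10 to 3001.95 in 35S:KLU (log2 2.50 against Col-0 and 3.19 against klu, limma adjusted p = 0.00147 and 0.000204; log2 2.48 against klu without klu replicate 1). FMO1, which makes N-hydroxypipecolic acid, was at 2.0 to 2.75 FPKM in Col-0, 0.20 to 2.02 in klu and 6.60 to 12.83 in 35S:KLU. In klu replicate 1, PR1 and FMO1 had their lowest values, as did 16 CRKs.

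Cell type markers were summed in each plant. All 3 mesophyll markers were expressed, and their summed FPKM was 31842 to 34313 in Col-0, 31215 to 39620 in klu and 28079 to 32479 in 35S:KLU. The sums of the 5 xylem markers were 73.7 to 79.9 FPKM in Col-0, 79.3 to 87.5 in klu and 54.9 to 66.9 in 35S:KLU, and those of the 4 guard cell markers 43.1 to 44.6, 42.4 to 49.8 and 32.3 to 39.3. Both sums were lower in 35S:KLU without overlap, and 4 xylem markers and 1 guard cell marker were called lower against Col-0. The mesophyll sums, of which RBCS1A is the largest part, overlapped with those of Col-0, with 1 marker called lower. RCA was at 3475.71 to 3546.9 FPKM in Col-0 and 2183.84 to 2594.99 in 35S:KLU. LHCB1.1 was at 7432.97 to 7904.29 and 6374.57 to 7415 FPKM. Both lay below Col-0 without overlap, and 2 of the 3 mesophyll markers were called lower against klu. The 4 phloem markers summed to 343 to 389.7 FPKM in Col-0, 370.7 to 477.3 in klu and 306.7 to 351.2 in 35S:KLU, and overlapped with Col-0. SWEET12, a sucrose exporter, was called higher against Col-0 (17.07 to 25.84 FPKM in Col-0 and 25.37 to 36.72 in 35S:KLU), and AHA3, a proton pump of companion cells, lower (116.89 to 126.43 FPKM and 83.24 to 96.61). The 2 epidermal markers summed to 205.5 to 250.1 FPKM in Col-0, 128.0 to 295.6 in klu and 146.1 to 169.5 in 35S:KLU. The 35S:KLU sums lay below Col-0 without overlap, and neither marker was called against Col-0 (PDF1 and ATML1, limma adjusted p = 0.108 and 0.380). Against klu without klu replicate 1, PDF1 was lower (log2 -0.93, limma adjusted p = 8.73e-05) and ATML1 was not called (log2 -0.17, adjusted p = 0.1455). The 4 meristem markers reached 9.86 to 10.4 FPKM in Col-0, 0.06 to 14.4 in klu and 5.68 to 8.62 in 35S:KLU. WUS and CLV3 were at or near 0, and STM and KNAT1 were not called against Col-0 (limma adjusted p = 0.578 and 0.846). The spread in that test includes klu replicate 1, with STM at 0 and KNAT1 at 0.06 FPKM. STM was at 6.5 to 7.27 FPKM in Col-0 and 3.41 to 5.85 in 35S:KLU, without overlap. Against klu without klu replicate 1 both were lower (log2 -0.81 and -0.62, limma adjusted p = 0.00102 and 0.0028). The root hair markers COBL9 and EXPA7 were at or near 0 in all plants. The 3 senescence markers summed to 39.6 to 79.2 FPKM in Col-0, 9.58 to 30.2 in klu and 68.4 to 109.8 in 35S:KLU. SAG13 was called higher than in Col-0 and made up most of the 35S:KLU sum (65.45 to 106.99 FPKM), and SAG12 was called lower. NAC092 was at 4.13 to 5.39 FPKM in Col-0, 3.54 to 10.13 in klu and 2.44 to 3.91 in 35S:KLU. It lay below Col-0 without overlap and was not called there. Against klu without klu replicate 1, NAC092 was lower (log2 -0.87, limma adjusted p = 0.0286). SAG12 was at 5.11 to 47.13 FPKM in Col-0, listed at 0 in all 3 klu plants and at 0 to 0.80 FPKM in 35S:KLU, and was called lower in klu than in Col-0 too (limma adjusted p = 0.0150). The part of these markers in the changes of the CRKs was not tested, and in whole rosettes fewer cells of a type and less RNA per cell cannot be told apart.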

How the data were processed

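The data are RNA-seq of 12 Arabidopsis rosettes (4 genotypes, 3 plants each). According to its methods the study selected poly(A) RNA, built directional libraries, read them from both ends and aligned them to TAIR10. The processing notes name STAR (no version) and RSEM 1.2.22. The values used are the deposited FPKM, given by the authors for 33323 genes per library, and 0 per-sample columns were left out. The authors' own comparisons in the same table (fold changes, standard errors, p-values and adjusted p-values) were not used. Library sums lay between 1110149 and 1194277 FPKM. Without fragment counts, only relative depth could be read, from the steps between low values.

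A gene was tested if 3 or more libraries held 0.5 FPKM or more, which 19660 genes did of the 24434 with any value above 0. Their log2(FPKM + 1) entered limma 3.58.1 (R 4.3.3) with genotype means as the only terms and a prior variance that follows the mean level (11.986 residual and prior degrees of freedom). Benjamini-Hochberg adjustment covered all tested genes, and an adjusted p under 0.05 was called. The name 35S:KLU stands for both lines averaged. The test was checked on simulated data with independent normal noise. These hold no outlying library like klu replicate 1 and no noise of fragment counts, so the check does not cover either. The replicate numbers of the titles did not pair the plants. Each library is 1 plant, and p-values measure the spread between plants.

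Members and lists were chosen with earlier results of these data known. The rule for named genes takes KLU, all CRKs, up to 4 called members of each other list and any member of a list of at most 12 genes. Outside it, SOBIR1, BAK1, BIK1 and RBOHD were named for their known roles. Positions, promoters and transcripts came from RefSeq TAIR10.1, where all 39 members were found. Alternatives were no filter, a pseudocount of 0.1, a block for the replicate number, 3 scalings of the libraries, library weights, only the compared genotypes in the model, and leaving out each library.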

Additional observations from a re-analysis of the deposited data

How the results depend on the processing

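Over the alternatives that left out no library, 240 of 248 results for single members against Col-0 kept their direction and side of the threshold, 6 lost the call and 2 gained it. Against klu 225 of 248 kept both and 23 lost the call, and 0 results reversed. Counts of called members moved in 35S:KLU1 against Col-0 (14, and 9 with no filter on low values), 35S:KLU2 against Col-0 (14, and 22 with library weights) and 35S:KLU2 against klu (20, and 13 with only those genotypes in the model). The causes were not tested.

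Leaving out 1 library gave 8 to 19 members called higher and 0 to 2 called lower in 35S:KLU against Col-0, 4 to 18 called in 35S:KLU1 against Col-0 and 6 to 19 in 35S:KLU2 against Col-0. In 35S:KLU1 the lowest, 4, came without its replicate 1, and 5, 6 and 9 were called without Col-0 replicate 1, 2 or 3, and 8 and 6 without 35S:KLU1 replicate 2 or 3. In 35S:KLU2 the lowest, 6, came without its replicate 3, 9 without its replicate 1, and 8 without Col-0 replicate 1 or 2. The direction of 2 uncalled members reversed: CRK29 against klu ranged from -0.13 to 0.0349 on the log2 scale and CRK10 against Col-0 from -0.10 to 0.01024.

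Plants with the same replicate number did not deviate together (correlations of -0.16 to 0.13, and 3 of 12 plants correlated best with their own number), and no pairing is known. A replicate block in the model gave 17 higher and 2 lower against Col-0 and 19 and 2 against klu. Depth limits the 8 untested members and those near 1 FPKM, where few fragments stand behind a value.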
